A study of Mus musculus with 4 samples.

Results

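MEFs carrying a doxycycline (Dox) inducible Mitf were compared, after 6 days of Dox, with wild-type mouse embryonic fibroblasts (MEFs). The comparison used 2 of the 4 samples of the series, the library labelled Dox (+) and the library labelled MEF, and it covered 22835 genes. It was set by the sample labels and not by any measured value. There was 1 library on each side, so no difference has a replicate check and no p-value was computed. The Dox (+) cells were at passage 5. They came from 1 KH2 ES cell clone that carried the M2rtTA transactivator at both ROSA26 alleles, a TetO-driven M-Mitf, the melanocyte isoform, at 1 Col1a1 allele, and an mCherry transgene with a puromycin cassette. The clone was injected into host blastocysts and fibroblasts were made from the chimeric embryos. The cassettes allowed the knock-in cells to be purified, but the labels do not say that they were, so host cells could be present. The MEF cells were at passage 3, had no transgene and had no Dox. The medium was the same for all MEFs. Genotype, Dox, passage and chimeric origin differed together between the 2 libraries and cannot be told apart. Untreated knock-in MEFs at passage 5, called Dox (-), carried the same alleles as Dox (+), and their values are given alongside. The values of the column named MEF did not match the wild-type values tabulated with the study, whereas those of the knock-in columns often did, so which wild-type library the column holds is uncertain, and every level and fold given for MEF rests on it. Primary melanocytes, the other sample of the series, were not analysed here.

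MITF is a basic helix-loop-helix leucine zipper transcription factor. It binds E-box sequences, among them the M-box core TCATGTG, in the promoters of the enzymes and structural proteins that make melanin and build the melanosome, the lysosome-related organelle that holds the pigment. It belongs to the MiT/TFE family with TFEB, TFE3 and TFEC, which act on genes of lysosomes and, in osteoclasts, on genes of bone resorption. Fibroblasts do not normally make pigment.

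The level of a gene in a library was its highest exon there in RPKM, reads divided by exon length and by library size. Read numbers and folds on an exon are those of the exon that was highest over MEF and Dox (+), which need not be the highest exon of every library. Low exon values returned whole reads at depths of 45000000 reads for MEF and for Dox (-) and 44000000 for Dox (+). A gene was tested when it exceeded 10 RPKM in Dox (+) or in MEF, and it was called higher or lower when the levels were more than 4-fold apart. A gene above 10 RPKM in Dox (+) only could therefore be called higher but not lower, and a gene above it in MEF only the reverse. Of 12941 genes tested, 848 (6.55%) were called higher in Dox (+) and 440 (3.4%) lower, together 9.95%. Counts of called list members below are to be read against these shares. Above 2-fold these shares were 20.2% and 8.98%, together 29.2%. Log2 fold changes used a pseudocount of 1 RPKM, and their median over all tested genes was 0.27. With Dox (+) rescaled so that the median log2 ratio was 0, the calls were 621 higher and 542 lower, so that higher calls made up 53.4% of the calls against 65.8% without rescaling. For Dox (-) against the same MEF library, 1093 genes (8.26%) were called higher and 160 (1.21%) lower, together 9.47%, with a median log2 fold change of 0.01. Of 12 control genes 0 were called, and their log2 fold changes ran from -0.53 for Ppia to 0.80 for Gapdh.

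**Figure D1:**
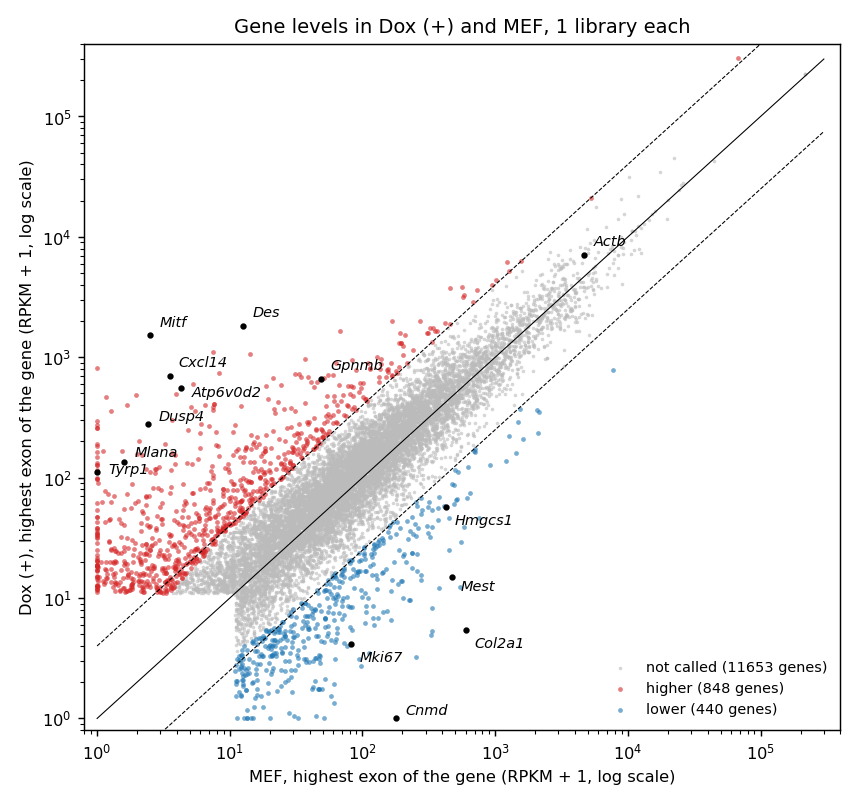
Gene levels in MEF (x axis) and Dox (+) (y axis), as the RPKM of the highest exon plus 1 on log scales, for the genes above 10 RPKM in either library. The solid line marks equal levels and the dashed lines a 4-fold difference. Mitf, Atp6v0d2, Tyrp1 and Mlana lie far above the upper dashed line, Col2a1, Mki67 and Hmgcs1 lie below the lower one, and Actb lies between the lines.

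Mitf itself was at 1.52 RPKM in MEF, 30.8 in Dox (-) and 1544 in Dox (+). It was lowest in MEF and highest in Dox (+), with the untreated knock-in cells in between. The gene lies at mm10 chr6:97807052-98021349 on the plus strand. On its highest exon, chr6:98010395-98010470, there were 4 reads in MEF, 104 in Dox (-) and 5164 in Dox (+), and the level in Dox (+) was 1320-fold that in MEF with a 95% counting interval of 515 to 4848. Intervals here and below cover counting error only. In each of the 14 listed Mitf exons Dox (+) exceeded MEF by more than 2-fold, but not equally. The 4 exons that lie before the first exon of the M isoform held 3.16 to 7.64 RPKM in Dox (+), 2.60 to 4 in Dox (-) and 0 to 0.62 in MEF. The M exon, chr6:97991792-97991953, and the 9 listed exons after it held 68.2 to 1544 RPKM in Dox (+), 4.39 to 30.8 in Dox (-) and 0.27 to 1.52 in MEF. The last exon is listed in a shorter and a longer form. The shorter form, which holds the stop codon, had 55 reads in MEF, 360 in Dox (-) and 10286 in Dox (+). The 2642 bases beyond it, untranslated and annotated only in the longer form, had 190, 536 and 450 reads. The difference between Dox (-) and Dox (+) was thus largest from the M exon to the shorter end of the last exon, and reads from the transgene and from the endogenous gene cannot be told apart within them.

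**Figure D2:**
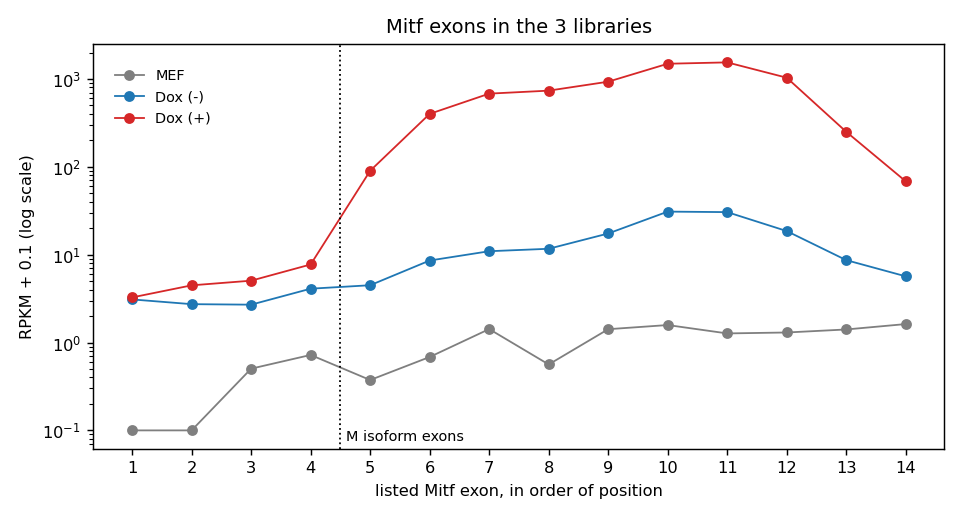
RPKM plus 0.1 on a log scale for the 14 listed Mitf exons in order of position, in MEF (grey), Dox (-) (blue) and Dox (+) (red). From the M isoform exon onwards (right of the dotted line) Dox (+) reaches up to 1544 RPKM, and before it Dox (+) stays between 3.16 and 7.64 RPKM.

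Genes of pigment and the melanosome included some of the largest differences. Of 20 listed genes, 14 were tested, 9 were called higher and 0 lower. The median log2 fold change of the tested members was 2.85, that is, 2.57 above the median of all genes, and for Dox (-) against MEF the same genes had a median of 0.08. Only 6 of these 14 exceeded 10 RPKM in MEF, and the others could not be called lower. The count of 0 lower and the difference between these medians are therefore in part set by the filter. In bulk RNA, a few cells with much of a transcript and many cells with a little cannot be told apart, here and in the results that follow.

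Tyrp1, an enzyme of eumelanin synthesis, had 0 RPKM in MEF, 0.5201 in Dox (-) and 109.6 in Dox (+). Its highest exon had 0, 2 and 709 reads, so Dox (+) was at least 242-fold higher than MEF, against a floor of 3 reads in the MEF library. Mlana, a melanosome protein also known as MART-1, was at 0.585, 0.3899 and 133 RPKM, at least 194-fold higher on its highest exon. Both genes were near 0 in the 2 libraries without Dox. Tspan10, a tetraspanin of pigment cells, was at 0, 0.383 and 13.8 RPKM. Trpm1, the melastatin cation channel, was at 0.609, 0.254 and 10.3 RPKM, and its ratio of 16.9 on 2 and 33 reads had an interval of 4.32 to 145. These 2 genes passed the threshold of 10 RPKM by little, and both lost their call above 30 RPKM and with a pseudocount of 5 RPKM. Trpm1 also lost it with rescaled levels, with the median exon and with exons of at least 100 bases only.

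Rab27a, Mlph and Myo5a form the complex that ties melanosomes to actin, and all 3 were called higher. Rab27a was at 6.45 RPKM in MEF, 2.33 in Dox (-) and 64.2 in Dox (+). Mlph was at 5.66, 2.63 and 55.8 RPKM. Myo5a was at 321, 609.9 and 1763 RPKM. In the first 2 of these genes Dox (-) lay below MEF, and in Myo5a it lay between MEF and Dox (+). Mreg, which acts in the shedding of melanosomes, was at 2.69, 1.71 and 26.2 RPKM.

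Gpnmb behaved differently from the others. This melanosomal glycoprotein, which macrophages also make, was at 47.8 RPKM in MEF, 522 in Dox (-) and 662 in Dox (+), so it was already high without Dox. Macrophage markers were high in Dox (-) as well (values below), and their part in the Gpnmb level was not tested.

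Other pigment genes were not called. Tyr, the rate-limiting enzyme of melanin synthesis, was at 0.0118 RPKM in MEF, 0 in Dox (-) and 2.37 in Dox (+), below the threshold of 10 RPKM. Its highest exon had 0, 0 and 19 reads, at least 6.48-fold. Gpr143, a melanosomal receptor, was at 0.202, 0.109 and 7.42 RPKM, at least 10.6-fold on 31 reads. All 5 Tyr exons and all 8 Gpr143 exons that held 10 or more reads were more than 2-fold above MEF in Dox (+). Pmel, which forms the fibrils of the melanosome, was at 3.704, 4.96 and 12.96 RPKM and missed the fold threshold. These levels lie on different exons, since the highest exon of MEF was the last one, with 59, 79 and 45 reads. In the other 10 of its 11 exons Dox (+) exceeded MEF by more than 2-fold, and the highest exon in Dox (+) had 2, 17 and 77 reads, a ratio of 39.4 with an interval of 10.5 to 331. On the same exon in both libraries 10 of 14 pigment genes were called higher. Dct, the tautomerase of the same pathway as Tyrp1, was at 0, 0.798 and 0.9001 RPKM, on 0, 4 and 8 reads. Mc1r and Slc45a2 stayed below 0.2 RPKM in all 3 libraries and Oca2 had no reads. Slc24a5 (59.9 RPKM in MEF, 44.5 in Dox (-), 26.6 in Dox (+)) and Rab38 (18.4, 7.04 and 5.34 RPKM) had their lowest level in Dox (+), with neither past the 4-fold threshold. Atp7a, a copper pump that supplies tyrosinase, was at 14.9, 30.3 and 32.9 RPKM, and Rab32, which acts in melanosome traffic, at 46.0, 62.7 and 46.4. With rescaled levels 8 of 13 tested pigment genes were called higher and 1 lower.

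Promoters of some of these genes hold the E-box letters that MITF is known to bind. RefSeq promoters (GRCm38.p6, 250 bases before to 50 after a gene start) were given for 15 of the 20 pigment genes. CATGTG, on either strand, was in the promoters of 8 of these 15 genes (53.3%), against 15.9% of all 27025 genes of the promoter set. Of these 8, only Tyrp1, Trpm1 and Tspan10 were called higher. Tyr, Dct, Mc1r, Oca2 and Slc24a5 hold the letters as well and were not called. CACGTG was in 4 (26.7%) against 8.09%. The longer core TCATGTG, which contains CATGTG, was in 7 (46.7%) against 4.31%. Among the lysosomal and V-ATPase genes, 37 had a promoter, of which 7 (18.9%) held TCATGTG and 9 (24.3%) held GTCACGTG, a core of the lysosomal CLEAR element that contains CACGTG, against 2.55% of all genes for the latter. These counts describe letters and not binding. The windows below show CATGTG in capitals, read on the strand that carries it, for 3 pigment genes that were called higher, for Tyr and Dct, which were not, and for Trim63, a muscle ubiquitin ligase that comes up again below.
Tyrp1: ggagggagtCATGTGctgcctagt
Trpm1: aatcctcatCATGTGcccacccca
Tspan10: cagtggtatCATGTGaggagtcac
Tyr: aaagttagtCATGTGctttgcaga
Dct: acttagggtCATGTGctaacaaag
Trim63: cctggggctCATGTGacagaggtg
They lie at chr4:80834158-80834181 (Tyrp1, plus strand), chr7:64153685-64153708 (Trpm1, plus), chr11:120442601-120442624 (Tspan10, gene on the plus strand and letters on the minus strand), chr7:87493519-87493542 (Tyr, minus), chr14:118052382-118052405 (Dct, minus) and chr4:134315061-134315084 (Trim63, plus). The centre of the motif is 43 bases upstream of the gene start in Tyrp1, 138 in Trpm1, 18 in Tspan10, 18 in Tyr, 147 in Dct and 47 in Trim63. All 6 windows hold the longer core TCATGTG. Trim63 is 1 of the 10 genes farthest above both other libraries (given below), of which 7 had a promoter. TCATGTG was in 3 of these 7 (42.9%), and in 2 of the 10 promoters (20%) given for the 12 largest rises, against 4.31% of all genes. The 3 were Tyrp1, already counted among the pigment genes, Lce1g and Trim63. Both gene sets were chosen by their levels in these data. The Dct promoter, whose gene was at 0.90 RPKM in Dox (+), holds the same letters as the Tyrp1 promoter, whose gene was at 109.6 RPKM.

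**Figure D3:**
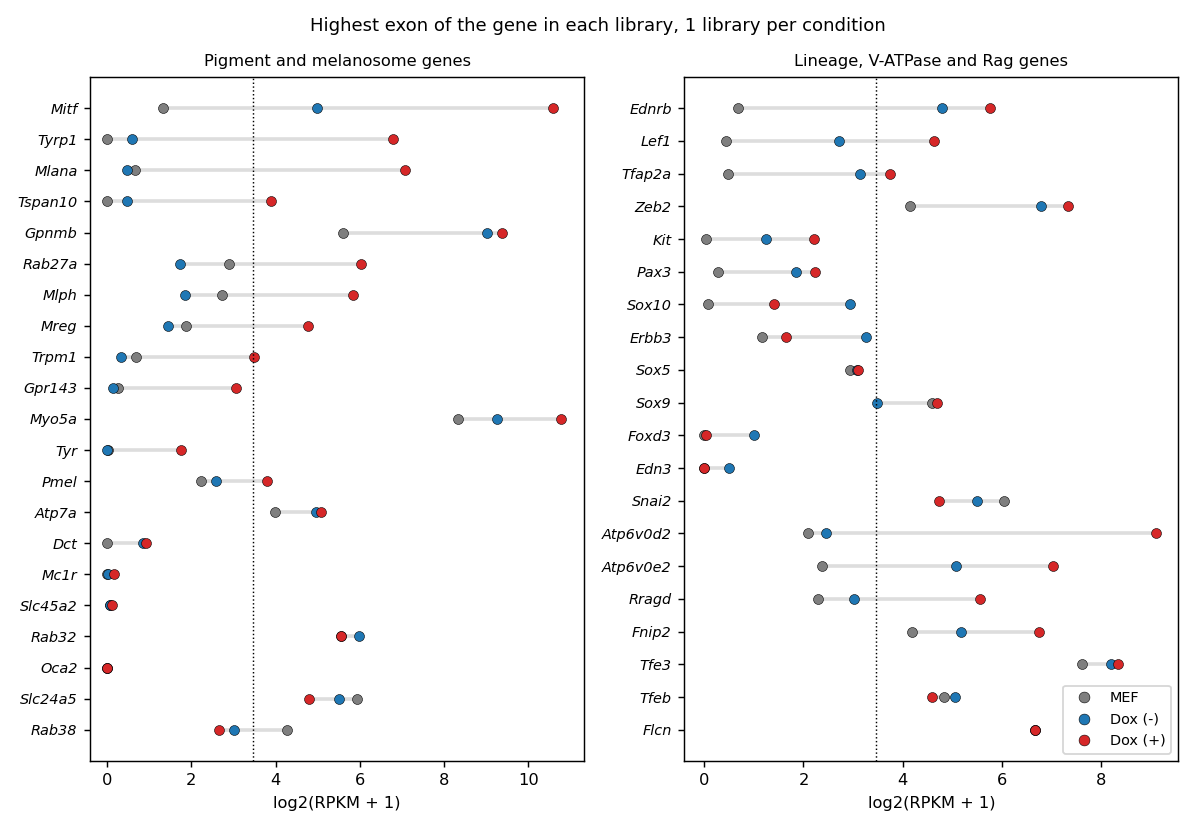
Level of each gene as log2(RPKM + 1) of its highest exon in MEF (grey), Dox (-) (blue) and Dox (+) (red), with the dotted line at 10 RPKM. Tyrp1, Mlana and Tspan10 are near 0 in both libraries without Dox, whereas Gpnmb, Ednrb and Zeb2 are high in both knock-in libraries.

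Factors and receptors of the melanocyte lineage followed another pattern over the libraries. Of 13 genes 6 were tested, and 4 were called higher. Only 3 of these 6 exceeded 10 RPKM in MEF, and the others could not be called lower. Ednrb, the endothelin receptor of melanoblasts, was at 0.593 RPKM in MEF, 26.7 in Dox (-) and 53.5 in Dox (+). Zeb2 was at 16.7, 109.8 and 159.8 RPKM. Lef1, a partner of beta-catenin, was at 0.361, 5.56 and 23.7 RPKM, and Tfap2a, which acts with MITF on pigment genes, at 0.383, 7.82 and 12.4 RPKM. In all 4 genes Dox (-) lay between MEF and Dox (+). Tfap2a lost its call above 30 RPKM, with a pseudocount of 5 RPKM and with the median exon. Lef1 lost its call above 30 RPKM. Sox10, a neural crest factor upstream of Mitf, was at 0.0514, 6.69 and 1.66 RPKM, Pax3 at 0.216, 2.58 and 3.704, and Kit, the receptor melanoblasts need, at 0.0289, 1.35 and 3.64, all under the threshold. Snai2 was at 65.3, 44.1 and 25.5 RPKM and was not called. Sox9, at 23.2, 10.3 and 24.96 RPKM, was not called either. Edn3, Foxd3, Erbb3 and Sox5 stayed under 10 RPKM in all 3 libraries.

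Among the partners and regulators of the MiT/TFE factors, 3 of 9 tested genes were called higher, Mitf included. Rragd, the Rag GTPase that brings mTORC1 to lysosomes, was at 3.88 RPKM in MEF, 7.15 in Dox (-) and 46.1 in Dox (+), and Fnip2, a folliculin partner, at 17.2, 35.2 and 106. In both genes Dox (-) lay closer to MEF than to Dox (+). Tfe3 was at 196, 293 and 322 RPKM and Fnip1 at 39.1, 63.3 and 64.4, both under 4-fold. Tfec, which was at 0, 10.4 and 1.196 RPKM, was not tested. Rragc (255, 245 and 239 RPKM), Flcn (101, 101 and 101 RPKM), Tfeb (27.7, 32.5 and 23.1) and Rraga (103, 93.2 and 109) had close levels in the 3 libraries.

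The V-ATPase, the proton pump that acidifies lysosomes and melanosomes, was called higher in 2 of 19 tested subunits (10.5%, against 6.55% of all tested genes). Atp6v0d2, the d2 subunit found in osteoclasts, was at 3.26 RPKM in MEF, 4.44 in Dox (-) and 551 in Dox (+). On its highest exon, of 25 bases, the reads were 1, 5 and 606, a ratio of 619.8 with an interval of 111 to 24519.6, and in all 11 exons with 10 or more reads Dox (+) was above MEF by more than 2-fold. Its last exon, of 1540 bases, held 68, 45 and 5074 reads. Atp6v0e2 was at 4.17, 32.9 and 129 RPKM. Of the other subunits none was called, and Atp6v1a (344, 578 and 812 RPKM) and Atp6v0c (404, 587 and 905 RPKM) had the largest fold changes of those. The median of the list was 0.56 and 14 of 19 subunits were above the median of all genes.

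Of 32 lysosomal hydrolases and membrane proteins 0 were called, their median log2 fold change was 0.06, that is, -0.21 relative to all genes, and their range was -0.90 to 1.70. Ctsb, a cysteine protease, stood highest, at 1198 RPKM in MEF, 4929 in Dox (-) and 3884 in Dox (+). Of the osteoclast list 6 of 13 genes were tested and 3 called higher. Besides Atp6v0d2 these were Ctsk, the collagenase of osteoclasts, at 18.2, 259 and 450.5 RPKM, and Itgb3, the beta3 integrin, at 21.98, 61.3 and 148. Acp5, Oscar, Dcstamp and Ocstamp stayed under the threshold in MEF and in Dox (+).

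Of 15 genes known as MITF targets in growth and survival 10 were tested, and Ednrb, Cdkn1a and Tbx2 were called higher. Cdkn1a, the p21 inhibitor of cyclin-dependent kinases, was at 192 RPKM in MEF, 1019 in Dox (-) and 1602 in Dox (+). Tbx2 was at 1.36, 16.2 and 11.5 RPKM, highest in Dox (-), and lost its call with rescaled levels, the median exon, exons of at least 100 bases only, a pseudocount of 5 RPKM or a threshold of 30 RPKM. Hif1a (356, 419 and 336 RPKM), Dicer1 (58.5, 62.3 and 57.4), Cdk2 (70.9, 59.7 and 57.5), Met (35.7, 18.4 and 52.9) and Scd1 (69.7, 70.98 and 82.97) were not called, and neither were Cdkn2a (112, 173 and 222 RPKM) and Apex1 (426, 268 and 628 RPKM). Bcl2, Birc7, Ppargc1a, Bcl2a1b and Dct were below 10 RPKM in MEF and in Dox (+).

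Many genes of cell division were lower in Dox (+) than in MEF. Of 29 tested genes of the cell cycle and DNA replication 16 were called lower and 0 higher, with a median log2 fold change of -2.13. For Dox (-) against the same MEF library 0 of 29 were called and the median was -0.76. Mki67, a marker of cycling cells, was at 80.4 RPKM in MEF, 61.3 in Dox (-) and 3.16 in Dox (+), on 1509, 1150 and 42 reads, a log2 fold change of -4.29. Birc5, or survivin, was at 162, 76.5 and 10.4 RPKM. Cenpe, a kinesin of the kinetochore, was at 36.5, 17.5 and 2.14 RPKM, and Ccnb2, a mitotic cyclin, at 127, 56.9 and 10.9. In these 4 genes MEF was highest and Dox (+) by far lowest. Other mitotic genes were called as well, among them Top2a (211, 114 and 19.1 RPKM) and Cdk1 (281, 137 and 52.8). Mcm2 (69.03, 41.6 and 58.99 RPKM) and Pcna (116, 91.5 and 86.2), both of DNA replication, were not called, and Mcm6 (150.0, 68.95 and 37.9) lay just under 4-fold. With rescaled levels 17 members were called lower. E2f1, at 57.97, 66.3 and 76.9 RPKM, was the only tested member with a positive log2 fold change. Over the alternative settings 10 to 22 members were called lower and 0 were called higher. The passages of the libraries differed, at 3 for MEF and 5 for Dox (+) and Dox (-), and the part of passage was not tested.

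Of 17 tested p53 targets and cell cycle inhibitors, 2 were called higher, Cdkn1a and Pmaip1 (10.5, 78.2 and 43.9 RPKM), and 1 lower, the CDK4 and CDK6 inhibitor Cdkn2c (55.6, 36.03 and 12.01 RPKM). The shares were 11.8% higher and 5.88% lower, against 6.55% and 3.4% of all tested genes. With rescaled levels 1 was called higher and 2 lower. Mdm2 (152, 525 and 489 RPKM) and Ccng1 (577, 1409.8 and 1687 RPKM), both p53 targets, were under the 4-fold threshold and had levels near each other in the 2 knock-in libraries.

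Genes of cholesterol synthesis and uptake had negative log2 fold changes throughout. Of 19 tested genes 4 were called lower and 0 higher, the median log2 fold change was -1.23, and 19 of 19 lay below the median of all genes. The median for Dox (-) against MEF was -0.27. Hmgcs1, the enzyme that feeds the mevalonate pathway, was at 423 RPKM in MEF, 351 in Dox (-) and 56.3 in Dox (+). Insig1, which holds SREBP in the endoplasmic reticulum, was at 112, 79.6 and 17.3 RPKM. Msmo1 was at 377, 251 and 68.2 RPKM. In these 3 genes the 2 libraries without Dox were close and Dox (+) was apart.

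Of 19 tested glycolysis genes 2 were called higher (10.5%, against 6.55% of all tested genes), the glucose transporter Slc2a1 (136, 198 and 796 RPKM) and hexokinase Hk2 (37.8, 85.6 and 279 RPKM). The list median was 0.81, and 14 of 19 were above the median of all genes. For Dox (-) against MEF the median of the list was -0.65. The lactate transporter Slc16a3 (224, 80.9 and 554 RPKM), Gpi1 (1206, 762 and 2388) and Aldoa (6799, 3660.2 and 12060.4) had their lowest level in Dox (-) and their highest in Dox (+). None of 24 tested genes of oxidative phosphorylation was called, with a median of 0.25, and none of 18 ATF4 stress genes, with a median of -0.24.

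NRF2 target genes, which protect from oxidants, were called higher in 5 of 13 tested members and lower in 0, with a median of 1.47. With rescaled levels or a pseudocount of 5 RPKM 3 of 13 were called higher. Hmox1, heme oxygenase, was at 563 RPKM in MEF, 1131 in Dox (-) and 3862 in Dox (+). Srxn1, or sulfiredoxin, was at 32.4, 107 and 277 RPKM, and Osgin1 at 3.62, 10.7 and 31.4. Nqo1, a quinone reductase, was at 53.6, 40.5 and 228 RPKM. Txnrd1 (271, 383 and 776 RPKM) and Gclm (154, 170.4 and 428 RPKM) were also highest in Dox (+) but within 4-fold.

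Immediate early genes and the feedback inhibitors of ERK signalling were called higher in 10 of 24 tested members and lower in 0. The median was 1.60, and 21 of 24 lay above the median of all genes. Of these 24, 17 exceeded 10 RPKM in MEF, and the others could not be called lower. Dusp4, a nuclear phosphatase of ERK, was at 1.43 RPKM in MEF, 50.4 in Dox (-) and 276 in Dox (+). Spry4, an inhibitor of receptor tyrosine kinase signalling, was at 0.332, 6.55 and 18.6 RPKM. The ETS factor Etv1 was at 1.52, 7.82 and 23.99 RPKM, and the AP-1 member Fosl1 at 17.5, 23.5 and 111. In the first 3 genes the untreated knock-in cells were between the others, and in Fosl1 they were near MEF. Fos (25.1, 61.5 and 22.7 RPKM) and Klf2 (10.1, 11.5 and 10.3 RPKM) were not called.

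**Figure D4:**
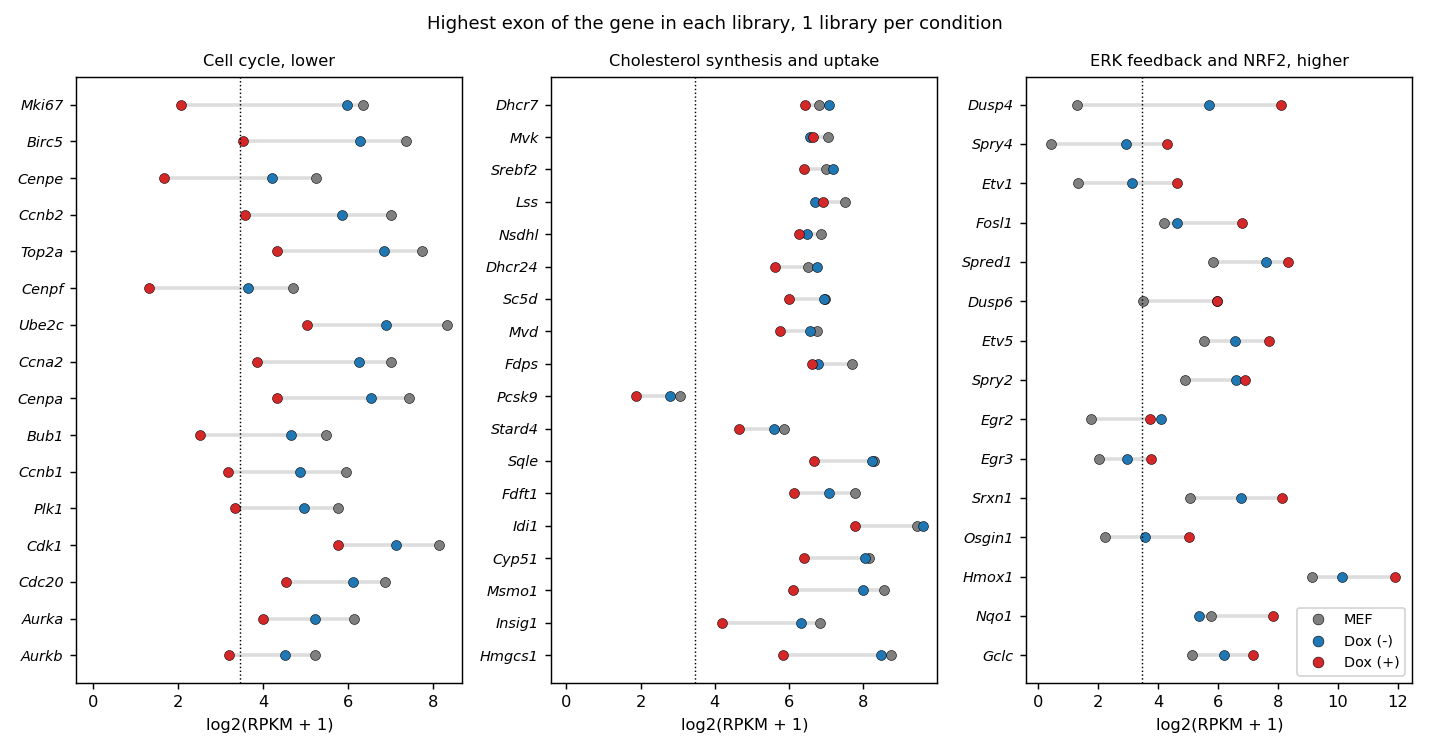
Level as log2(RPKM + 1) of the highest exon in MEF (grey), Dox (-) (blue) and Dox (+) (red) for the 16 cell cycle genes called lower, cholesterol genes, and the ERK feedback and NRF2 genes called higher, with the dotted line at 10 RPKM. In the left panel Dox (+) is lowest for all 16 genes, and in the middle panel it is separate from both other libraries for Hmgcs1, Insig1 and Msmo1.

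Of 14 tested chemokines and cytokines 8 were called higher and 1 lower, with a median of 2.72, and for Dox (-) against MEF the median was 3.36. Cxcl14 was at 2.53 RPKM in MEF, 624 in Dox (-) and 703 in Dox (+). Ccl8 was at 0.198, 25.4 and 72.2 RPKM, Il6 at 1.33, 42.1 and 69.6, and the alarmin Il33 at 3.704, 45.3 and 60.6. For all 4 genes both knock-in libraries were high and MEF was low. Cxcl1, a neutrophil chemokine, was called lower, at 13.99, 40.6 and 3.37 RPKM. Of 6 tested complement genes Serping1 was called higher (18.8, 132 and 116 RPKM), and 2 were called lower, among them C4b (15.02, 70.7 and 2.62 RPKM). Of 15 tested interferon-stimulated genes 1 was called, Irgm1, lower at 154, 75.5 and 34.3 RPKM. Of 11 tested MHC genes 2 were called higher (18.2%, against 6.55% of all tested genes), H2-Ab1 (0.801, 9.26 and 54.9 RPKM) and H2-Q4 (64.2, 537 and 355 RPKM), the latter with near-identical copies in the genome.

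Markers of macrophages, which make many of these proteins, were present at unequal levels in the 3 libraries. Their summed level over 16 genes was 243 RPKM in MEF, 18809 in Dox (-) and 962 in Dox (+). Against MEF, 5 of 7 tested markers were called higher in Dox (+), among them Tyrobp (2.53, 1795 and 73.2 RPKM) and Lyz2 (27.8, 10820.0 and 379 RPKM). Only 3 of these 7 exceeded 10 RPKM in MEF, and the others could not be called lower. Above 1 RPKM 10 of 14 were called higher and 0 lower. Ptprc was at 0.0655, 67.6 and 0.77 RPKM, Itgam at 0.15, 89.4 and 1.92, and Adgre1 at 0.605, 265 and 5.43, all under 10 RPKM in MEF and in Dox (+). All 16 markers exceeded 10 RPKM in Dox (-). Between Dox (-) and Dox (+) the marker sum was lower in Dox (+). Of the immune genes named above, Cxcl14, Ccl8, Il6, Il33 and H2-Ab1 had their highest level in Dox (+). Serping1, C4b, Cxcl1 and H2-Q4 had theirs in Dox (-). The part of macrophage RNA in the immune genes, in Gpnmb and in the osteoclast genes was not tested.

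Matrix genes were called in both directions. Of 32 tested matrix glycoproteins 5 were called higher (15.6%, against 6.55% of all tested genes) and 4 lower (12.5%, against 3.4%). Dcn, the collagen-binding proteoglycan decorin, was at 30.02 RPKM in MEF, 1637 in Dox (-) and 719.5 in Dox (+), and Lum, a related proteoglycan, at 6.07, 226 and 44.8. Tnn was at 0.168, 16.9 and 13.6 RPKM and Thbs2 at 131, 2236 and 688. These 4 genes were highest in Dox (-). Fbn2, a fibrillin of embryonic microfibrils, was called lower at 200.2, 238 and 21.3 RPKM, as were Aspn (371, 875 and 55.4), Vcan (623, 588 and 122) and Ogn (524, 617 and 111). In these 4 genes the 2 libraries without Dox were high and Dox (+) was low.

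Of 21 tested collagens 2 were called higher, Col15a1 (4.35, 98.2 and 36.6 RPKM) and the basement membrane chain Col4a1 (571, 4974 and 3136 RPKM), and 2 lower, Col11a1 (507, 592 and 63.97 RPKM) and Col14a1 (25.2, 146 and 2.95 RPKM). The fibrillar chains Col1a1 (4958, 12562 and 2301 RPKM), Col1a2 (9087, 17942 and 4089) and Col3a1 (3319.5, 10487 and 847) did not reach 4-fold against MEF, and all 3 were lowest in Dox (+) and highest in Dox (-). The transgene lies at the Col1a1 locus. Of the tested collagens 9.52% were called in each direction, against 6.55% higher and 3.4% lower over all tested genes. The split of 2 higher and 2 lower was 1 and 5 with exons of at least 100 bases, 2 and 4 with rescaled levels, and 4 and 1 of 19 with the median exon. Metalloproteinases that cut the matrix were called higher in 5 of 17 tested genes with TIMPs included, and lower in 1 (3 and 1 of 16 with rescaled levels). Mmp3 was at 1.07, 158 and 201.3 RPKM, Mmp10 at 0.139, 22.1 and 76.7, and Mmp13 at 0.686, 87.2 and 72.3. Timp3 was at 362, 4019.5 and 1649 RPKM. Mmp16, a membrane-bound protease, was lower at 62.03, 17.05 and 8.58 RPKM.

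Of 14 tested smooth muscle contractile genes 4 were called higher. Des, the intermediate filament desmin, was at 11.6 RPKM in MEF, 571 in Dox (-) and 1805 in Dox (+). Myh11, the smooth muscle myosin, was at 1.75, 129 and 108 RPKM, Actg2 at 167, 1329 and 2018, and Mylk at 6.06, 122 and 54.5. Acta2 (10218, 12721 and 31696 RPKM) and Tagln (9298, 7509.8 and 15514 RPKM), made by myofibroblasts in general, were within 4-fold. Acta1, the skeletal actin, was at 20.5, 80.7 and 372 RPKM.

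Of 25 tested mesenchymal transcription factors 7 were called higher, led by Wt1 (0.517, 31.01 and 31.2 RPKM), Barx1 (0.0654, 16.2 and 18.98), Twist2 (8.85, 56.8 and 111) and Shox2 (1.59, 26.9 and 26.5). The 3 called lower were Foxd1 (31.1, 5.88 and 2.35 RPKM), Meox1 (19.2, 17.7 and 2.32) and Foxc1 (26.8, 9.41 and 6.25). Of 13 tested Hox genes 6 were called higher and 0 lower (3 higher and 1 lower of 11 with rescaled levels, 1 higher of 13 with a pseudocount of 5 RPKM), among them Hoxc4 (0.376, 17.7 and 19.5 RPKM) and Hoxc6 (0.697, 27.4 and 14.5). Only 6 of these 13 exceeded 10 RPKM in MEF, and the others could not be called lower. With a threshold of 30 RPKM 0 Hox genes were tested. Except for Meox1 and Twist2, the levels in Dox (-) were nearer to Dox (+) than to MEF in the genes named here.

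Of 18 tested genes of the TGF-beta and BMP response 5 were called higher and 1 lower. The BMP antagonist Grem1 (33.4, 347 and 678 RPKM), the activin subunit Inhba (27.7, 446 and 263) and Tgfb1 (65.3, 283 and 592) were among those called higher, and Bmp4 (45.5, 46.8 and 10.0 RPKM) was lower. Of 10 tested WNT genes 5 were called higher and 2 lower. With rescaled levels 2 of 9 were called higher and 2 lower, and with a pseudocount of 5 RPKM 2 were called higher and 1 lower. Axin2, a feedback target of WNT signalling, was at 0.647, 7.18 and 10.4 RPKM, and Dkk2 and Sfrp1, both secreted antagonists, were at 1.14, 29.8 and 12.9 and at 25.9, 714 and 120.05 RPKM. Wnt16 (82.7, 42.6 and 4.47 RPKM) and Sfrp2 (20.6, 126 and 2.53 RPKM) were called lower.

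Of 23 tested genes of the IGF axis and imprinted growth genes 4 were called higher and 4 lower. Igf2 was at 66.7 RPKM in MEF, 6022 in Dox (-) and 1653 in Dox (+), and Igfbp3 at 14.8, 2173 and 180.3. Igfbp2 was called lower at 7741, 896 and 776 RPKM. Mest (471, 193 and 14.02 RPKM) and the noncoding Meg3 (1619, 2837 and 209 RPKM) were lower in Dox (+) than in both other libraries. Among cadherins and integrins 6 of 19 were called higher, led by Itga7 (7.96, 64.0 and 78.8 RPKM), and the epithelial and placental cadherins Cdh1 (21.7, 1.08 and 0.697) and Cdh3 (104, 58.9 and 15.7) were called lower.

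**Figure D5:**
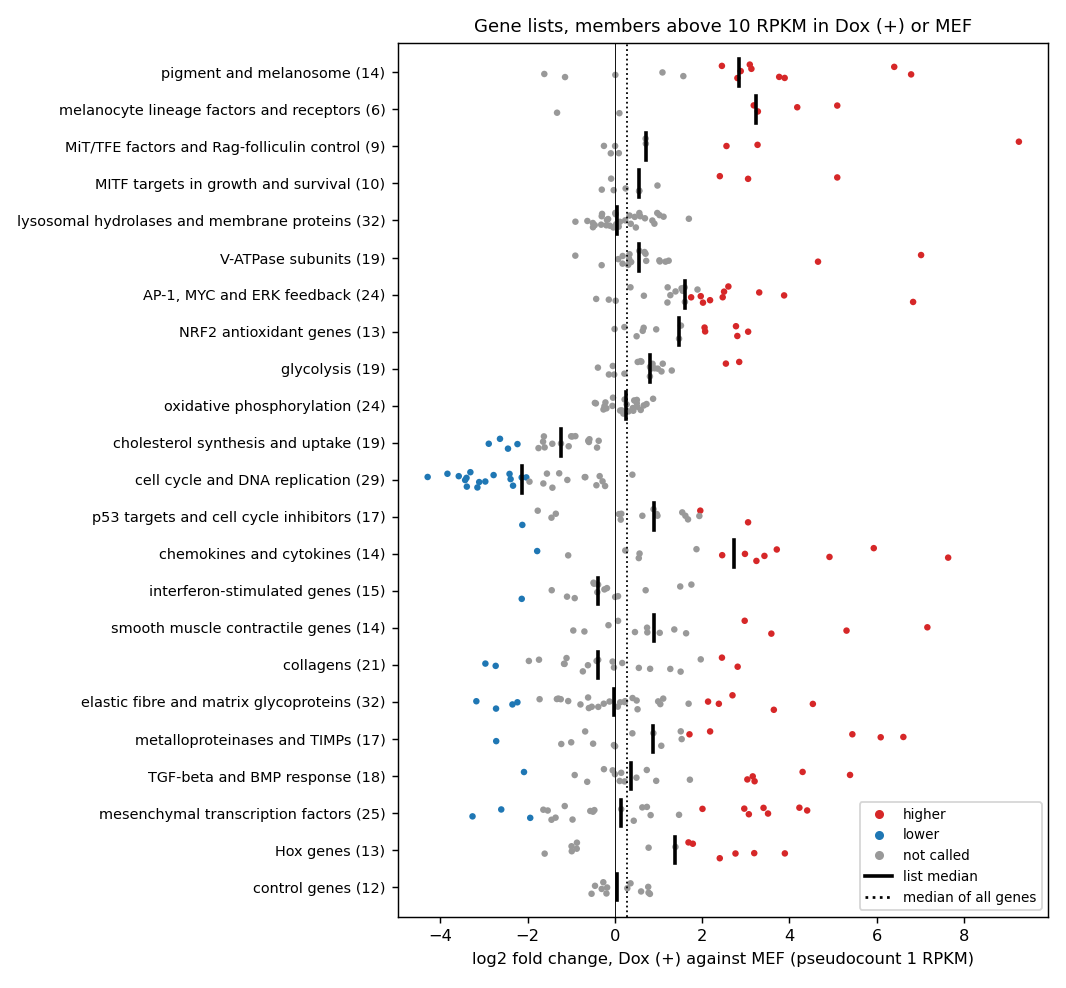
Log2 fold change of Dox (+) against MEF for the tested members of 23 gene lists (number tested in parentheses), coloured by call, with the list median (black bar) and the median of all genes, 0.27 (dotted line). The pigment and lineage lists have their medians at 2.85 and 3.23, the cell cycle list at -2.13, and the lysosomal and control lists at 0.06 and 0.05.

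The label of the cells was checked against markers. Of 12 fibroblast markers all 12 were tested. Vim was at 24417 RPKM in MEF, 12302 in Dox (-) and 24344 in Dox (+), and Col1a1 and Col1a2 were above 10 RPKM in all 3 libraries. Fap (1.502, 296 and 109.8 RPKM), Dcn, Lum and Thy1 (726, 2014 and 3608 RPKM) were called higher in Dox (+), and Dpt (20.4, 123 and 4.15 RPKM) lower, so the library labelled MEF had low Fap, Dcn and Lum. None of 9 endothelial markers reached 10 RPKM in MEF or Dox (+). Other cell types were represented by few tested markers. Of 2 Schwann and glia markers 1 was called higher (Fabp7, at 1.96, 144 and 24.3 RPKM), of 3 skeletal muscle markers 2 (Des and Acta1), of 3 adipocyte markers 1 (Lpl, at 2.22, 81.7 and 190.1 RPKM), and of 5 cartilage and bone markers 2. Fabp7 and Lpl passed the filter through Dox (+) alone and could not be called lower. Of 5 pericyte markers Myh11 and Cspg4 (27.4, 90.4 and 130.7 RPKM) were called higher and Rgs5 (15.2, 21.1 and 1.09 RPKM) lower. Of 3 epithelial markers 1 (Cdh1) and of 3 neuronal markers 2 were called lower. Col2a1, the cartilage collagen, was at 599 RPKM in MEF, 24.5 in Dox (-) and 4.47 in Dox (+), and the neuronal genes Stmn2 (1271, 67.8 and 219 RPKM) and Map2 (194, 57.1 and 12.99 RPKM) were called lower. Spp1, made by bone cells and others, was at 67770.4, 170800.0 and 308826 RPKM on an exon of 3 bases. The noncoding Xist, made from the inactive X chromosome, had 0.0177 RPKM in MEF, 178 in Dox (-) and 89.3 in Dox (+), and the Y-linked Ddx3y had 31.04, 127 and 110.3 RPKM. Both knock-in libraries thus held Xist together with Y-linked transcripts, and the part of sex in the gene lists was not tested.

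Among single genes chosen by size alone, the 12 largest rises were Grik3, Mitf, Cxcl14, Megf10, Des, Atp6v0d2 and 6 genes of the Xlr family. Megf10, an engulfment receptor also found in muscle satellite cells, was at 0.1104 RPKM in MEF, 33.1 in Dox (-) and 166 in Dox (+). The 12 largest falls were Cnmd, Col2a1, Cubn, Lrrc17, Arhgap36, Palmd, Stk32b, Ptx3, Chodl, Klra7, Klra6 and Mest. Cnmd, or chondromodulin of cartilage, had 178, 1.001 and 0 RPKM, and its highest exon had 1334, 4 and 0 reads, so Dox (+) was at least 435-fold lower than MEF. Lrrc17 was at 331, 117 and 4.37 RPKM, and Ptx3, a secreted pentraxin, at 334, 46.1 and 7.19.

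Some of these genes had read numbers that did not scale with exon length. In Grik3, a kainate receptor, 4 neighbouring exons of 54 to 258 bases each held 1919 to 1921 reads in Dox (+), and the other 8 exons held 0 to 8. In Cubn, the intestinal cobalamin receptor, 61 exons held between 570 and 581 reads each in MEF over lengths of 39 to 236 bases. Such genes, with at least 3 exons within 2% of the read number of the highest exon and lengths at least 2-fold apart, were 56 (6.604%) of the genes called higher, 20 (4.55%) of those called lower and 140 (1.20%) of those not called. Besides Grik3 and Cubn they included Xlr5a, Xlr5b, Xlr4b and Klra7 among the largest changes and H2-Q4 among the list members named above. Without them 792 genes were called higher and 420 lower. Levels of these genes are uncertain, as are those of families with near-identical copies.

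The genes that set Dox (+) apart from both other libraries are given as values only. The highest ratios to the nearer of the other libraries were those of Atp6v0d2, Mlana, Tyrp1, Mitf, Lce1a2, Trim63, Prl2c5, Upp1, Dynap and Lce1g. Trim63, the muscle ubiquitin ligase MuRF1, was at 0.221 RPKM in MEF, 0.657 in Dox (-) and 43.5 in Dox (+). Upp1, uridine phosphorylase, was at 5.56, 16.7 and 398 RPKM, and Prl2c5, a prolactin family member with close copies, at 6.91, 6.01 and 186. The late cornified envelope genes Lce1a2 (0, 0 and 32.1 RPKM) and Lce1g (0, 3.92 and 97.6 RPKM), normally of the epidermis, also stood out. The lowest ratios were those of Lrrc17, Mki67, Tnmd, Mest, Capn6, Fbxl13, Cdca3, Fam83d, Serpinb1c and Serpinb1a. Tnmd, the tendon protein tenomodulin, was at 221 RPKM in MEF, 137 in Dox (-) and 8.61 in Dox (+), and Capn6 at 166, 184 and 13.1. Serpinb1a, a protease inhibitor, was at 550.0, 279.8 and 28.4. All 10 were lower in Dox (+) than in both other libraries, which is the rule that chose them. No gene of the first 10, also chosen by this ratio, except Mitf exceeded 20 RPKM in either library without Dox.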

How the data were processed

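RNA was sequenced from 1 library per condition after preparation with a poly(A) kit that does not mark strand, so sense and antisense reads cannot be told apart. The authors aligned reads to mm10 with TopHat2 2.0.10, counted them on Ensembl exons with bedtools and deposited the exon table in RPKM. Every read that overlaps an exon counts, which raises RPKM on short exons, and levels of different genes are therefore comparable only roughly. This limits the summed macrophage level and the contrast of Dct with Tyrp1. Columns were tied to samples by name alone, which leaves the identity of the wild-type library uncertain, and 1 column whose name matched no sample was not used.

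Exons were assigned to genes with GENCODE M21 (228132 of 234718 listed exons matched, 6586 did not). Of those, 226463 exons of protein coding genes, lincRNAs and pseudogenes gave 22835 genes. Reads were recovered from RPKM at the depth that made most values below 200 reads whole within 0.02 (97.2%, 97.0% and 96.9% of values in MEF, Dox (-) and Dox (+)). Intervals are exact 95% intervals of a ratio of counts, and 3 reads in 1 library was the floor. The call rule was above 10 RPKM and more than 4-fold, without a pseudocount. With 1 library per condition no test across genes was made.

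Members of 41 gene lists and the rules for naming genes were chosen with earlier results of these data known. Named were all genes of the pigment, lineage and MITF target lists, in each other list up to 4 called members in each direction by size, with some members that were not called added after their values were seen, and the 12 largest rises and falls among genes with at least 30 reads on the highest exon and with at least 50% of the exons of 10 or more reads over 2-fold apart in 1 direction, placeholder symbols left out. The 10 genes farthest above and the 10 farthest below both other libraries followed the same filters. Promoter windows came from RefSeq. A few genes that these rules would name are not reported here.

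The calls were tested on simulated reads, drawn a second time from the MEF library and so covering counting error only: of 200 genes changed 8-fold 200 were recovered, with 5 false calls among 12091 genes tested. Alternatives changed the expression and fold thresholds, the pseudocount, the exon that sets the level, the scaling and the gene types, and 2 further ones were added after seeing the data. Python 3.11.15, pandas 2.3.3, NumPy 2.4.6, SciPy 1.17.1 and matplotlib 3.10.9 were used.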

Additional observations from a re-analysis of the deposited data

How the results depend on the processing

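The numbers of genes called higher and lower in Dox (+) against MEF depend on the thresholds. They were 1748 and 814 above 1 RPKM, 557 and 285 above 30 RPKM, 3345 and 1774 with no expression threshold, 2614 and 1162 above 2-fold, 436 and 213 above 8-fold, and 522 and 248 with a pseudocount of 5 RPKM. Under the other settings they stayed within 1.5 times of 848 and 440, including 661 and 370 with exons of at least 100 bases only and 792 and 420 without genes whose exons hold alike reads, both added after seeing the data. The median log2 fold change of all genes, 0.27, was 0.19 with no expression threshold, 0.25 with a pseudocount of 5 RPKM, 0.32 on the same exon in both libraries, 0.37 with the median exon, 0.30 with protein coding genes only, 0.23 with exons of at least 100 bases, and -0.0088 after rescaling, by construction. Of 439 list medians under the alternatives 3 changed sign: collagens (0.080) and ATF4 genes (0.072) with the median exon, and oxidative phosphorylation (-0.025) after rescaling. The cause was not tested for the first 2. Of 192 called or size-chosen genes none was called in the opposite direction under any of these settings. An opposite call was unlikely, since the genes were chosen by their differences in the same data. The call was lost by 41 of the 192 above 30 RPKM, 67 above 8-fold, 41 with a pseudocount of 5 RPKM and 41 with the median exon. It was lost by 23 after rescaling and by 19 with exons of at least 100 bases. With exons of at least 100 bases Tbx2, Trpm1, C4b, Col4a1, Fap, Thy1, Sfrp1, Sfrp2, Spp1, Cxcl1, Barx1 and Hoxc4 were among the genes that lost their call. After rescaling Trpm1, Tbx2, Nqo1, Pmaip1, Axin2, Timp3, Sfrp1, Spp1, Cd68, Cspg4 and Hoxb5 were.

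No paired analysis was possible because each condition has 1 library and no test was made. No replicate could be left out, for the same reason. Depth limits what can be seen of weak genes, since 3 reads on an exon of 150 bases correspond to 0.44 to 0.45 RPKM.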

Other observations

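In some multi-copy families all tested members were called in 1 direction, and in others they were not. Of 13 tested histone genes 1 was called higher and 0 lower, and of 83 ribosomal protein genes 1 higher and 1 lower. Their median log2 fold changes were 1.53 for the histone genes and -0.25 for the ribosomal protein genes, against 0.27 for all tested genes. Of 12 Lce1 genes 3 were tested, and all 3 were called higher. These 3 had 0 RPKM in MEF, so no other call was possible. All 11 tested Xlr genes of 15 listed, X-linked genes with many near-identical copies, were called higher in Dox (+) and had 0 RPKM in MEF, with 3.90 to 293 RPKM in Dox (-) and 10.6 to 275 in Dox (+). With 0 RPKM in MEF a tested gene can only be called higher, so these calls too were fixed by the filter. All 14 tested Serpina3 genes, protease inhibitors of the acute phase on chromosome 12, were called higher, with 0 to 14.1 RPKM in MEF, 55.3 to 1043 in Dox (-) and 27.7 to 409 in Dox (+). Only Serpina3g exceeded 10 RPKM in MEF, and the others could not be called lower. All 11 tested Klra genes, natural killer cell receptors on chromosome 6, were called lower, with 28.6 to 119 RPKM in MEF, 0 to 2.22 in Dox (-) and 0 to 5.81 in Dox (+). They passed the filter through MEF alone and could not be called higher. In 5 Xlr, 6 Serpina3 and 6 Klra genes the exons held alike read numbers over unequal lengths, so the number of genes in each family that differ is uncertain.

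Of 13 tested semaphorins 3 were called higher and 1 lower, and these 4 were chosen after their values were seen. Over all tested genes, 6.55% were called higher and 3.4% lower. Sema7a was at 13.3 RPKM in MEF, 179.6 in Dox (-) and 1055 in Dox (+), Sema5a at 13.9, 50.5 and 109, and Sema6d at 0.397, 15.2 and 19.002, whereas Sema3a was at 178, 67.97 and 32.8. Of 17 tested Dusp phosphatases 4 were called higher, Dusp4 and Dusp6 of the list above together with Dusp15 (3.56, 50.7 and 58.2 RPKM) and Dusp9 (3.12, 2.44 and 40.1 RPKM), the last 2 also named after their values were seen. Dusp9 was low in both libraries without Dox.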
